A study of Drosophila melanogaster with 36 samples.

Results

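Males and females of *Drosophila melanogaster* were compared over every transcript on the array, with 18 male arrays set against 18 female arrays and the strain as a blocking factor. The arrays were chosen by the sex given in their labels, and all 36 arrays of the series entered, 3 per sex in each of 6 strains. All 6 strains shared the w1118 background. REC has red eyes and carries the element P{RS3}CB-0236-3 in its original form, and P{RS5}5-HA-1995 likewise. INV1 and INV2, also red-eyed, are homozygous for In(2R)51F11-56E2, an inversion with a breakpoint inside an ultraconserved run of genes. SIM1, REV1 and REV2 have white eyes and carry P{RS3r}CB-0236-3 and P{RS5r}5-HA-1995 in the standard gene order, SIM1 from a treatment that gave no inversion, and REV1 and REV2 from a reverted inversion. Each array measured the pooled RNA of 50 virgin flies aged 5 to 7 days, and 3 low-density crosses were made for the strains. The series' design calls the 3 arrays of a strain and sex biological replicates, named A, B and C. Each strain is a single engineered stock, and both sexes of a strain carry the same elements.

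Much of the difference in transcripts between adult male and female flies is known to lie in the germ line, since the testis and the ovary each have their own set of transcripts. Spermatogenesis uses many genes that are nearly silent elsewhere, and male accessory glands make seminal proteins. The ovary loads the egg with transcripts for DNA replication, chromatin and protein turnover, and the female fat body makes yolk proteins. In RNA pooled from flies, more cells of a type and more RNA per cell cannot be told apart.

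The deposited value of a transcript is a linear fluorescence intensity, from 135 to 54214 over 16637 transcripts with 0 missing values, and differences are given here on the log2 scale as male minus female, so that 1 is a 2-fold difference and positive values are higher in males. Within a sex the arrays share nearly the same distribution. At any rank of brightness the male arrays differed by at most 1.15% and the female arrays by at most 0.976%. Between the sexes the distributions differed. The median was 1979 in males against 1339 in females, a gap of 0.56 on the log2 scale, and the gap was 1.28 at the 25th percentile and -0.13 at the 75th. A transcript can therefore differ between the sexes in its rank, in the intensity that its rank carries, or in both. Transcripts are listed by FlyBase identifier, and the markers of ovary, testis, fat body and accessory gland could not be looked up, since 0 of the 231 genes in the 12 lists made for that purpose could be paired with an identifier. The labels of sex were therefore compared only with the transcripts that differed most. Those transcripts were chosen by the same labels, so this is no independent check of sex.

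**Figure D1:**
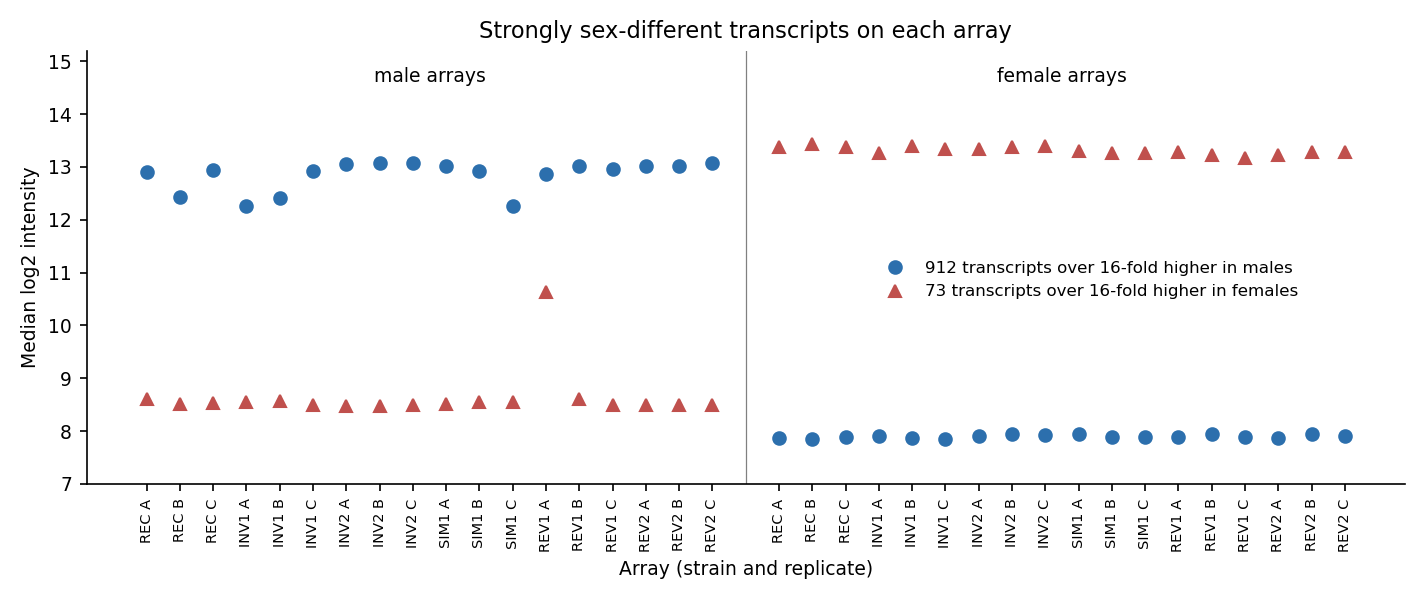
Median log2 intensity on each of the 36 arrays (horizontal axis, by sex, strain and replicate) of the 912 transcripts over 16-fold higher in males (circles) and the 73 over 16-fold higher in females (triangles), both sets chosen without replicate A of the REV1 males. The sets lie far apart on every array, but the triangle of REV1 A rises to 10.63 among the males, and the circles of INV1 A and B, REC B and SIM1 C lie between 12.27 and 12.44.

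In the plot of strongly different transcripts by array, 5 male arrays stood apart from the other 13. The array labelled replicate A of the REV1 males was high for transcripts that females express. Over the 73 transcripts that were over 16-fold higher in females when that array was left out, its median log2 intensity was 10.63, against 8.47 to 8.61 on the other 17 male arrays and 13.17 to 13.44 on the female arrays. It was the highest of the 18 male arrays for 72 of the 73. Its excess over the median of the 13 other male arrays, expressed as a share of the female intensity, had a median of 11.4% over these transcripts. In the transcripts 8 to 16-fold higher in females it lay above the median of the 13 other male arrays for 130 of 131, with a median excess of 0.84. In those 4 to 8-fold higher it lay above for 566 of 576 (0.39), and in those 2 to 4-fold higher for 82.6% of 2175 (0.16). Over the 912 transcripts more than 16-fold higher in males the same array had a median of 12.87, just under the 12.90 to 13.08 of the 13 others.

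The other 4 arrays were INV1 A and B, REC B and SIM1 C, all males, and they departed in another way. Their median over the 912 transcripts higher in males was 12.27 to 12.44. Set against the 13 other male arrays, the median deviation of these transcripts was -0.57 in REC B, -0.75 in INV1 A, -0.57 in INV1 B and -0.75 in SIM1 C, and between 10 and 36 of the 912 lay above the median of the 13. It was larger still among the 548 transcripts 8 to 16-fold higher in males, at -0.84 in INV1 A and -0.81 in SIM1 C, and it was -0.01 to -0.11 in those 2 to 4-fold higher. Their median over the 73 transcripts higher in females, 8.52 to 8.58, was within the range of the other males, with a median excess of 0.04 to 0.12. They were raised on transcripts with smaller female differences. The median excess was 0.14 to 0.18 in those 2 to 4-fold higher in females, as large as that of REV1 A, where the 4 arrays lay above the median of the 13 for 64.6% to 70.5% of 2175. It was 0.11 to 0.18 in those 4 to 8-fold higher and -0.01 to 0.03 in those 8 to 16-fold higher. In all 5 arrays the male set of transcripts over 2-fold different stood only 0.42 to 0.48 above the female set, against 0.75 to 0.92 on the 13 other male arrays and -3.82 to -3.71 on the female arrays. No female array stood apart in this way, with medians of 7.85 to 7.95 over the 912 transcripts. Results are therefore given with and without these arrays.

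The sexes differed in nearly every transcript. At a Benjamini-Hochberg adjusted p under 0.01 in limma, 15460 of 16637 transcripts were called (92.9%), of which 9580 were higher in males (57.6% of all transcripts) and 5880 in females (35.3%). The remaining 1177 were not called. Many of the called differences were small. The median SE of a difference was 0.062, a difference as small as 0.084 was called, and 25.9% of transcripts lay within 0.5 of 0. The median size was 1.10 among transcripts called higher in males and 1.0 among those called higher in females. A difference over 2-fold was called in 5221 transcripts higher in males (31.4%) and 2953 higher in females (17.7%). Without a model, 6734 transcripts had all 18 male arrays above all 18 female arrays (40.5%), and 4049 had all female arrays above all male arrays (24.3%). These counts too depend on the scaling between the sexes, described below. They were 3933 and 6146 after scale normalization, and 2799 and 3858 transcripts held under all 4 scalings.

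**Figure D2:**
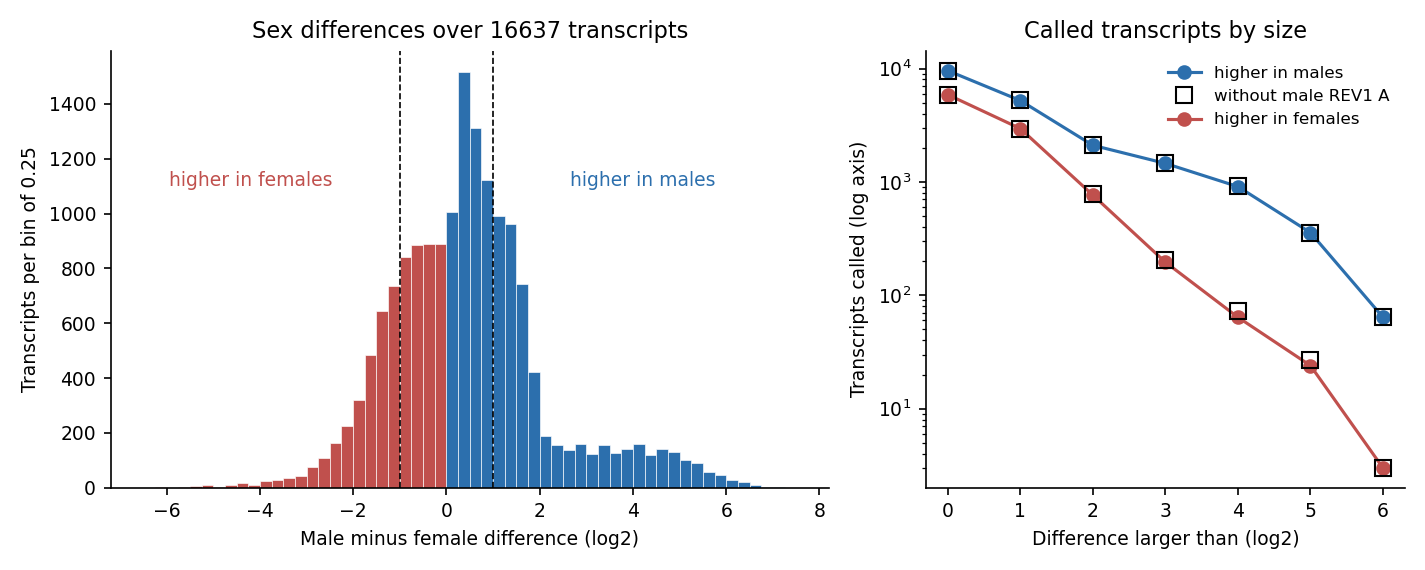
Left, the number of transcripts per bin of 0.25 of the male minus female difference (log2), with dashed lines at a 2-fold difference either way. Right, the number of called transcripts (log axis) whose difference exceeds each size, with open squares for the same counts without replicate A of the REV1 males. The male side has a long shoulder between 2 and 5.5. The female side falls to 10 transcripts between -4.25 and -4 and is uneven beyond, with 3 transcripts over 64-fold.

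The 2 sides of the distribution had different shapes. Differences ran from -6.22 to 7.35 with a mean of 0.48, a median of 0.39, an SD of 1.72 and a skewness of 0.68, and the middle 50% lay between -0.65 and 1.27. Counts in bins of 0.25 peaked at 1518 transcripts between 0.25 and 0.5. On the male side they fell to 158 by a difference of 2.25 to 2.5 and then stayed nearly level, between 101 and 161 per bin, up to 5.25. On the female side the bin from -2.5 to -2.25 held 162, and each 0.25 further out held fewer until 36 remained between -3.5 and -3.25. Over 4-fold, 2103 transcripts were higher in males and 765 in females. Over 8-fold the counts were 1456 and 196, over 16-fold 909 and 64, over 32-fold 357 and 24, and over 64-fold 64 and 3. The ratio of male to female counts in the deposited values thus went from 1.77 over 2-fold to 14.2 over 16-fold. Both ratios depend on the scaling between the sexes, described below. After scale normalization the male and female counts were 3125 and 5129 over 2-fold, and 613 and 127 over 16-fold.

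Without replicate A of the REV1 males the counts moved little. There were then 15437 calls (92.8%), 9568 higher in males and 5869 in females, with 5241 and 2955 over 2-fold, and 15415 transcripts were called in both fits, all in the same direction. The median was 0.39 and the SD 1.73. The far female tail moved most. The count over 16-fold in females went from 64 to 73, that over 8-fold from 196 to 204, and the lowest difference from -6.22 to -6.55, while the male counts over 16-fold were 909 and 912. The difference changed by more than 0.25 in 6 transcripts. Without INV1 A and B, REC B and SIM1 C, 9565 were higher in males and 6063 in females, and the SD was 1.77. Without all 5 arrays the counts were 9547 and 6058, and 7350 and 4718 transcripts had sexes that did not overlap.

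**Figure D3:**
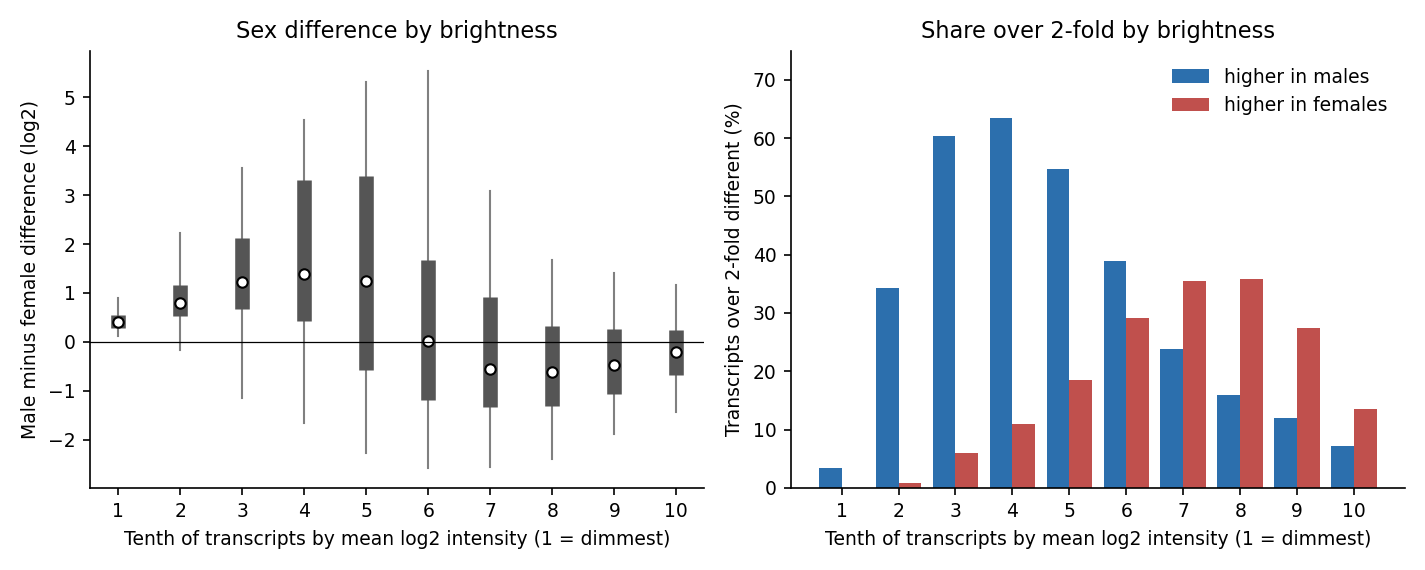
Left, the male minus female difference (log2) in 10 groups of transcripts from the dimmest to the brightest mean log2 intensity, with the median (circle), the middle 50% (bar) and the 5th to 95th percentile (line). Right, the percentage of transcripts in each group called over 2-fold different, by direction. Medians rise to 1.40 in the fourth group, cross 0 in the sixth and are negative in the 4 brightest groups.

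The direction of the difference followed brightness, which was described by cutting the transcripts into 10 groups by mean log2 intensity. The mean is taken over both sexes. A transcript dim in a sex and bright in the other thus falls in the middle groups by construction. In the dimmest group, with a median intensity of 254, the median difference was 0.40 and differences were alike (SD 0.27), and 94.4% of transcripts were called higher in males although only 3.37% were over 2-fold. That direction of calls belongs to the deposited scaling, since after scale normalization 24.6% of the group were called higher in males and 29.9% in females, after quantile normalization 9.74% and 61.8%, and with array medians subtracted 12.4% and 56.1%. Groups 2, 3 and 4 had medians of 0.80, 1.21 and 1.40. In group 4, at a median intensity of 939, 63.4% were over 2-fold higher in males and 10.9% in females. The spread was widest in groups 5 and 6, with SDs of 2.45 and 2.36, and the median fell from 1.24 to 0.02 between them. Above that the sign turned. Groups 7, 8 and 9 had medians of -0.55, -0.62 and -0.47. In group 8, at a median intensity of 4027, 35.8% were over 2-fold higher in females and 15.9% in males. The brightest group, at 10464, had a median of -0.20 and an SD of 0.76, with 13.5% over 2-fold higher in females and 7.21% in males.

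In the deposited values, transcripts over 2-fold higher in males were mostly dim in females. Those over 2-fold higher in females were mostly well expressed in males too. The 5221 transcripts over 2-fold higher in males had a median intensity of 2666 in males and 412 in females. The 2953 over 2-fold higher in females had 5648 in females and 1608 in males. Of the 909 transcripts over 16-fold higher in males, 96.8% had a female mean under an intensity of 512 (9 on the log2 scale), a level under which 35.9% of all transcripts lay in females, and their medians were 7347 in males and 237 in females. Of the 64 over 16-fold higher in females, 45 were under 512 in males, where 17% of all transcripts were. Their medians were 10701 in females and 389 in males. Over 2-fold, 57.6% of the 5221 were under 512 in females and 9.41% of the 2953 in males. The level thus marks more of all transcripts as dim in females than in males, and these shares were not examined under other scalings. By mean brightness, 564 of the 909 and 36 of the 64 lay in groups 5 and 6, where the spread was widest. This follows largely from averaging a dim and a bright sex and is no separate result about brightness.

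Counted by that same level of 512, chosen after the values were seen, 2460 transcripts were dim in both sexes, 3507 in females alone and 367 in males alone. The other 10303 were above it in both. Transcripts dim in females alone are higher in males by the way the class is defined, so that only the size of their difference is a description, with a median of 2.18 and 2919 over 2-fold. Among the 10303 above 512 in both sexes the direction was the opposite of that over all transcripts in the deposited values, whereas under the other scalings described below the median over all transcripts was negative as well. Their median as deposited was -0.25, 3832 were called higher in males and 5462 in females, and over 2-fold the counts were 2212 and 2675. With the level at 362 or 1024 the median of the transcripts above it in both sexes was -0.14 or -0.36.

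Replicate arrays of males spread more than those of females. The median SD within a strain over all transcripts was 0.21 in males and 0.11 in females, and it was widest in males in group 4 of brightness (0.27). By strain the male median SD was 0.24 in INV1, 0.23 in SIM1 and 0.19 in REC, against 0.12 in REV2, 0.11 in REV1 and 0.10 in INV2, and the female one lay between 0.07 and 0.12. It was larger in males in 5 of 6 strains, with INV2 as the exception, and the exact two-sided permutation test over the 6 strains gave p = 0.0625, where the smallest p it allows is 0.03125. The 3 strains with the widest male spread are those that hold the 4 arrays with low values over the 912 transcripts. Without the 5 arrays that stood apart the male median was 0.12, and without REV1 A alone it was 0.21. The 64 transcripts over 16-fold higher in females had a male SD of 0.52 that rested on REV1 A, since it was 0.14 without that array, against a female SD of 0.11. The 909 over 16-fold higher in males had a male SD of 0.28, which was 0.10 without the 5 arrays, and a female SD of 0.08.

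**Figure D4:**
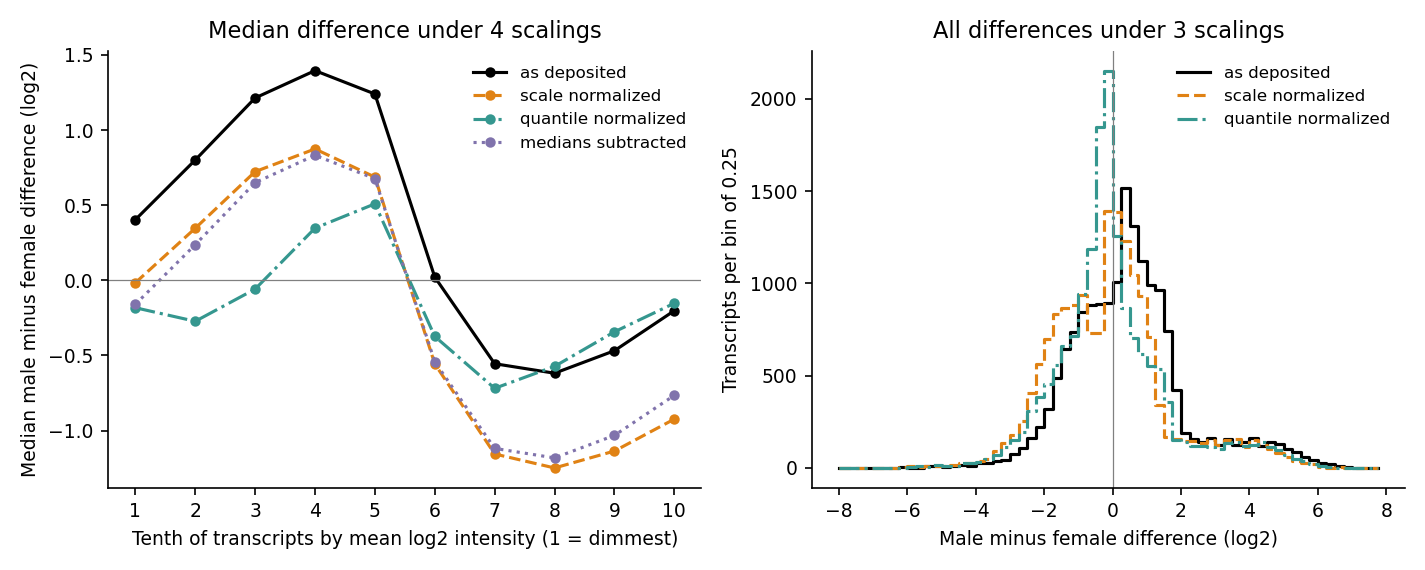
Left, the median male minus female difference (log2) in 10 groups of transcripts by brightness, for the values as deposited and after 3 other scalings of the arrays. Right, the number of transcripts per bin of 0.25 of the difference under 3 scalings. Under each scaling the medians peak in group 4 or 5 and are lowest in group 7 or 8, but the whole distribution shifts, and the dimmest group changes sign under each of the 3.

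How many transcripts were higher in which sex depended on how the arrays were scaled to each other, because a scaling shared by all arrays of a sex moves every difference. With the values as deposited, 62% of calls were higher in males. After scale normalization over the 36 arrays, which multiplies the log2 values of each array so that all have the same median, the share was 45.1% (6586 higher in males, 39.6% of all transcripts, and 8004 in females, 48.1%), after quantile normalization 39.8%, and with each array's median subtracted 42.7%. After scale normalization the middle 50% of values still spanned 2.55 in males and 4.14 in females. The median difference moved from 0.39 to -0.09, -0.19 and -0.18. Of the transcripts called in the deposited values, 1863, 3317 and 2284 had the opposite sign under these scalings, and of those over 2-fold 0, 380 and 0. Of all transcripts, 4634 were called higher in males (27.9%) and 5687 in females (34.2%) under all 4 scalings, and 3149 were called in opposite directions by different scalings. Over 2-fold differences held under all 4 in 2572 transcripts higher in males and 2840 higher in females.

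The course over brightness kept its shape in part. After quantile normalization, which removes every difference between the distributions of the sexes, the medians were -0.18 in the dimmest group, 0.51 in group 5, -0.72 in group 7 and -0.15 in the brightest. After scale normalization they were -0.02, 0.69, -1.16 and -0.92. The SD of the differences was 1.75 after scale and 1.68 after quantile normalization, so that the width of the distribution hardly depended on the scaling. Over 16-fold, 613 transcripts were higher in males and 127 in females after scale normalization, and 677 and 113 after quantile normalization. As deposited the counts were 909 and 64. The longer male tail was thus present under each, but less marked after these scalings.

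The sex difference was much alike in the 6 strains. Median differences lay between 0.35 (REV1) and 0.40 (INV1). Because the arrays of a sex share nearly the same distribution, the mean difference is nearly equal in every strain by construction. The close medians are therefore no separate result. The SD was 1.64 in INV1, 1.68 in REC, 1.70 in SIM1, 1.75 in REV1, 1.82 in INV2 and 1.83 in REV2. The difference had the same sign in all 6 strains in 14947 transcripts (89.8%), and in 8173 of the 8174 transcripts over 2-fold. The 8174 were chosen by their mean difference over the same 6 strains, so a shared sign follows largely from that choice. Of these 8174, 6308 were over 2-fold in every strain. Over the 16637 transcripts the differences in pairs of strains correlated at 0.975 to 0.994, as a description over transcripts that share arrays and distribution. The pairs did not follow the genotype. INV1 and INV2, which carry the same inversion, had the lowest value (0.975, with an SD of 0.42 for the gap between them), and INV2 and REV2 the highest (0.994, SD 0.20). Without the 5 arrays that stood apart, INV1 and INV2 were at 0.987 (SD 0.30), the lowest pair was REC and REV2 (0.979), INV2 and REV2 remained the highest, and the SD of the difference was 1.74 to 1.83 in all 6 strains. INV1 then rests on 1 male array.

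Whether the sex difference itself varied among the strains was tested for each transcript by the 5 interaction terms of sex and strain. This held for 249 transcripts in limma (1.5%), while 4653 had an unadjusted p below 0.05. The count of 249 was the least stable value of the comparison. Without REV1 A it was 266, without the other 4 male arrays 989 and without all 5 arrays 925. It was 19 with strain and replicate letter as a paired block, 53 with 1 weight per sex and 8260 with a weight for each array. With single arrays left out it ran from 58 without female REV2 A to 1050 without male INV1 C. In 205 of the 249 the sign was nevertheless the same in all strains. The strain with the highest difference was most often REC (102 transcripts), INV2 (56) or REV2 (44), and the strain with the lowest was REC (70), REV2 (69) or INV2 (63).

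FBtr0082287 varied most clearly. Its log2 intensity was 11.68, 11.68 and 11.74 in the 3 REC female arrays, 8.32 to 8.96 in the 15 other female arrays and 7.93 to 8.37 in the 18 male arrays. The REC females thus lay far above every other array. The difference was -3.44 in REC and between -0.28 and -0.77 in the other strains (interaction adjusted p = 2.62e-16 in limma). FBtr0076262 changed sign. In females it was 11.02 to 11.24 in INV1 and 12.21 to 12.46 in SIM1, while male arrays stayed within 11.41 to 11.87 in all strains. The difference was 0.65, 0.11 and 0.06 in the red-eyed INV1, REC and INV2. In the white-eyed SIM1, REV1 and REV2 it was -0.70, -0.42 and -0.41 (interaction adjusted p = 1.07e-06 in limma). These signs belong to the deposited scaling. Over all strains the difference of FBtr0076262 was -0.12 as deposited and -0.10 after quantile normalization. It was -0.74 after scale normalization and -0.68 with array medians subtracted. Its signs in single strains were not examined under those scalings. A link to eye colour was not tested. In both transcripts it was the females that varied among strains more than the males.

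The extremes of the distribution were clear on single arrays. FBtr0072046 was the transcript with the largest measured difference. In males its log2 intensity was 14.77 at the lowest, 15.12 at the median and 15.39 at the highest, and in females 7.62, 7.76 and 7.92, so that the sexes lay over 6 units apart. The female median lay at the 10th percentile of all female values (7.77), and no measure of background was used. Within the deposited scaling the difference is therefore best read as a lower bound, as are those of other transcripts this dim in a sex. As deposited it was 7.35 (SE 0.05, adjusted p = 6.57e-45 in limma), and 7.13 to 7.61 in the single strains. It was smaller after scale normalization (6.74) and after quantile normalization (6.96). FBtr0083827 followed at 7.12, with males at 14.69, 15.02 and 15.18 and females at 7.69, 7.86 and 8.11. Neither depended on REV1 A (7.35 and 7.12 without it).

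The 2 transcripts at the other end did. FBtr0071419 was at 15.03, 15.24 and 15.36 in females. In males it was between 8.28 and 9.24 on 17 arrays and 14.53 on REV1 A, where it came close to the female level. The difference was -6.22 (SE 0.31, adjusted p = 1.82e-19 in limma), -4.58 in REV1 and -6.31 to -6.83 in the other strains, and -6.55 without that array. FBtr0081956 was at 14.32, 14.39 and 14.47 in females, 7.82 to 8.25 on 17 male arrays, around the 5th percentile of male values (8.13), and 12.33 on REV1 A. Its measured difference was -6.11 with the array and -6.34 without it. All female arrays remained above REV1 A for both.

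Among the brightest transcripts differences were small, and some could not be measured. FBtr0112413 was the brightest transcript on every array and had the same value on all 18 arrays of a sex, 15.73 in males and 15.63 in females. Its difference of 0.09 is the gap between the highest values of the 2 distributions. FBtr0112526 was at 15.39 to 15.56 in males and 14.52 to 15.36 in females, a difference of 0.50 (adjusted p = 5.74e-11 in limma), and after scale normalization it was -0.31. The brightest called higher in females, FBtr0075884 and FBtr0082369, differed by -0.11 and -0.09 (adjusted p = 0.00493 and 0.00314 in limma), and their sexes overlapped.

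Gene names could be given to 44 of the 16637 identifiers (0.264%), which are listed as synonyms of 75 genes in RefSeq's table of the fly genome. They are no sample of the transcriptome. Most are transcripts that hold more than 1 reading frame, 28 of them name several genes, and they were brighter than usual, with a median mean log2 intensity of 12.12 against 10.67 over all transcripts. A value of a transcript with several gene names belongs to the shared transcript. Of the 44, 33 were called higher in females (75%, against 35.3% of all transcripts), 8 in males (18.2%, against 57.6%) and 3 were not called. In group 8 of brightness, which holds the median of the set, 63.8% of transcripts were called higher in females and 27.9% in males. Over 2-fold, 10 were higher in females and 3 in males, and the median difference was -0.66, against 0.39 over all transcripts. Under all 4 scalings 29 were called higher in females and 3 in males.

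**Figure D5:**
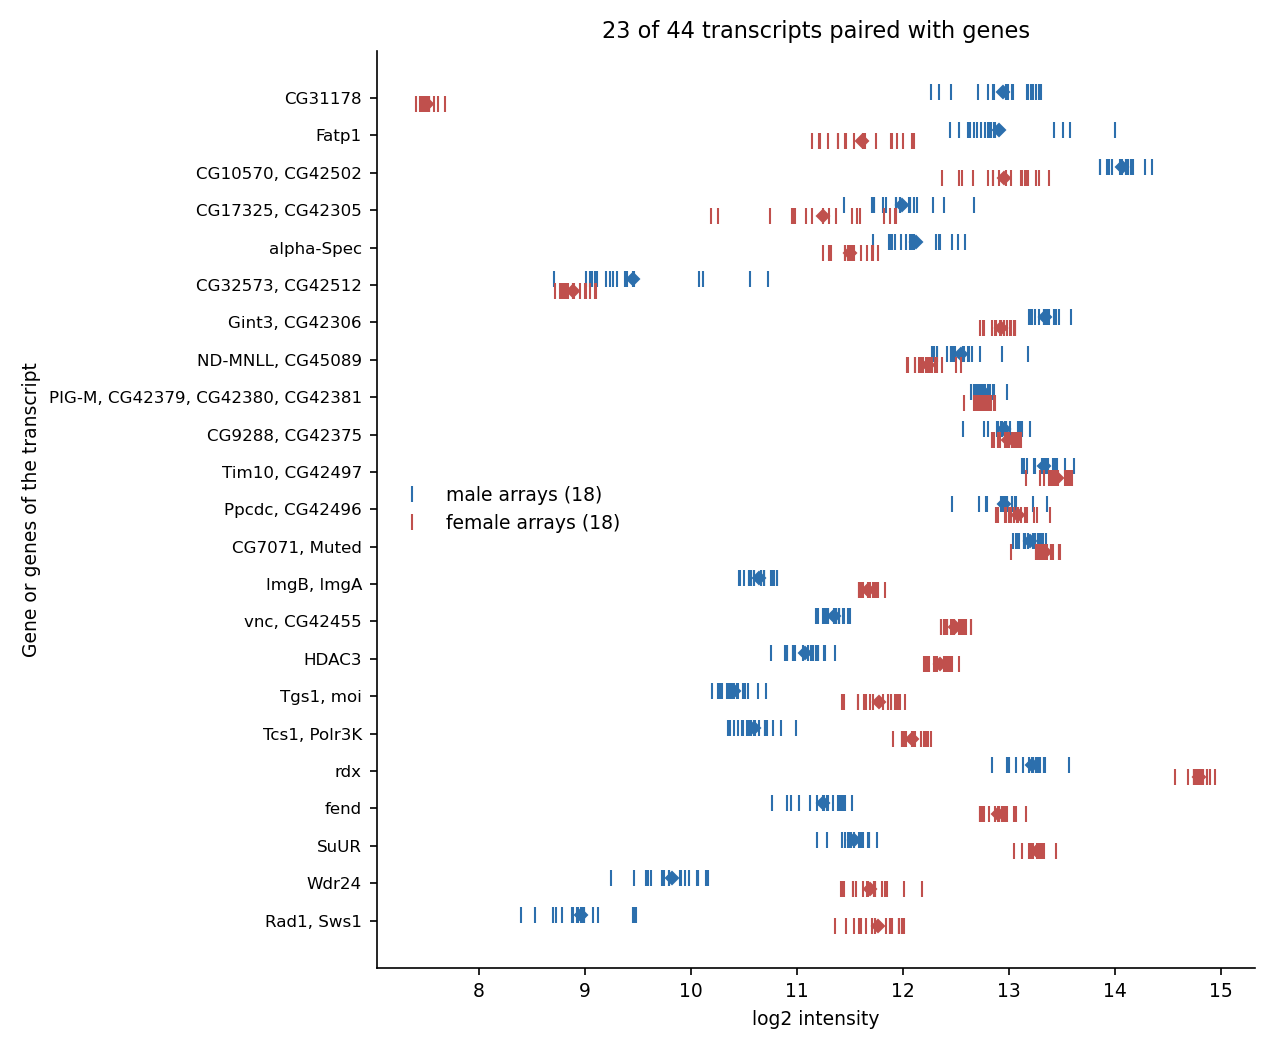
Log2 intensity (horizontal axis) on the 18 male and 18 female arrays of 23 of the 44 transcripts that could be paired with genes, the 8 called higher in males, the 10 most strongly higher in females and the 5 with the smallest differences. Ticks are arrays and diamonds are means of a sex. CG31178 at the top and Rad1 with Sws1 at the bottom show the widest gaps, and the middle rows overlap.

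The transcripts higher in females included genes of DNA repair, replication and chromatin. With 33 of the 44 called higher in females, no theme was tested, and kis, His4r, Uba1 and mio were added after their values were seen. Larger differences than that of kis, such as Pbp49 with CG42516 (-0.99) and Mvk with CG33672 (-0.98), are not grouped here. The transcript shared by Rad1, part of the clamp that signals DNA damage, and Sws1, whose relatives in yeast and human act in homologous recombination, was at 11.36, 11.79 and 12.01 in females (lowest, median and highest array) and 8.40, 8.95 and 9.48 in males. The groups lay nearly 2 units apart and the difference was -2.80 (SE 0.08, adjusted p = 3.41e-26 in limma). SuUR, which holds back replication in polytene chromosomes, was at 13.05, 13.29 and 13.45 in females and 11.19, 11.56 and 11.76 in males, a difference of -1.73. HDAC3, a histone deacetylase, differed by -1.27, and kis, a chromatin remodeller of the CHD family, by -0.86. In none of these 4 did a male array reach the lowest female array. His4r, a histone H4 gene used outside replication, differed by only -0.17 and its sexes overlapped.

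Growth control, protein turnover and RNA processing were represented as well. Wdr24 and mio both belong to the GATOR2 complex, which promotes signalling by TORC1 and is needed in the fly ovary. Wdr24 was at 11.42, 11.70 and 12.18 in females and 9.25, 9.85 and 10.16 in males, a difference of -1.87, whereas mio differed by -0.28 with sexes that overlapped. The difference of Wdr24 ran from -1.42 in REC to -2.33 in REV2 (interaction adjusted p = 0.00874 in limma). The ubiquitin pathway had rdx, an adaptor of Cul3 ligases that targets the Hedgehog effector Ci (-1.58), the transcript of lmgA and lmgB, which holds a subunit of the anaphase-promoting complex (-1.03), and Uba1, the activating enzyme (-0.61). Transcripts that carry Polr3K, a subunit of RNA polymerase III, with Tcs1 (-1.49), and Tgs1, which caps small nuclear RNAs, with moi, a telomere-capping protein (-1.37), were also higher in females. So were that of vnc, an N-terminal acetyltransferase subunit named for its nurse cell phenotype (-1.13), and fend (-1.65). In each of these, mio aside, all female arrays were above all male arrays.

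Of the 8 transcripts called higher in males, CG31178, a gene known by its annotation number, stood alone in size. It was at 12.26, 13.01 and 13.31 in males and 7.41, 7.51 and 7.69 in females, a measured difference of 5.43 (SE 0.08, adjusted p = 3.82e-36 in limma), with 5.17 to 5.72 in the single strains. Its female median was under the 5th percentile of female values (7.61), so that this too is a lower bound within the deposited scaling. The difference was 4.89 after scale normalization and 5.27 after quantile normalization. Its 4 lowest male values were those of SIM1 C (12.26), INV1 B (12.34), REC B (12.45) and INV1 A (12.71), and the difference was 5.57 without these 4 arrays. Fatp1, a fatty acid transport protein, was at 12.44 (lowest) and 12.79 (median) in males, where the highest array reached 14, and at 11.15, 11.58 and 12.11 in females, a difference of 1.30. Here the same 4 arrays were the highest males, with 14 in REC B, 13.58 in INV1 A, 13.51 in INV1 B and 13.43 in SIM1 C, and the difference was 1.14 without them. The transcript of CG32573 and CG42512 depended on them most. The 4 arrays were at 10.08 to 10.73, the other males at 8.71 to 9.46 and females at 8.72 to 9.10, and the difference went from 0.57 to 0.29 without them. The transcript of CG10570 and CG42502 differed by 1.12 and its sexes did not overlap.

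Smaller male differences were found for alpha-Spec, the alpha chain of the spectrin cytoskeleton (0.62), for CG17325 with CG42305 (0.74), for Gint3 with CG42306 (0.42) and for ND-MNLL, a subunit of mitochondrial complex I, with CG45089 (0.31). After scale normalization only CG31178, Fatp1 and CG10570 with CG42502 were still called higher in males among the 8. The smallest differences of the 44 were those of bright transcripts. The transcript of PIG-M, an enzyme of GPI anchor synthesis, shared with CG42379, CG42380 and CG42381, was at 12.64, 12.74 and 12.98 in males and 12.58, 12.74 and 12.87 in females, a difference of 0.01 (SE 0.03, adjusted p = 0.688 in limma). CG9288 with CG42375 differed by -0.04, Tim10, a chaperone of mitochondrial import, by -0.12, Ppcdc, an enzyme of coenzyme A synthesis, by -0.13, and CG7071 with Muted, a subunit of the BLOC-1 complex, by -0.14. Of these 5, Tim10 and CG7071 were called, at adjusted p = 0.00906 and 0.000804 in limma, and all had overlapping sexes.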

How the data were processed

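The submitters hybridized labelled cDNA in 1 colour to NimbleGen arrays. Per the methods, the array service did the steps from labelling to image extraction. The authors took the median of the probes of a transcript after log transformation and applied limma's scale method between arrays. Background correction is not given in the sources used here. The deposited values are linear intensities. Their near-equal distributions within a sex are what quantile normalization within each sex leaves, which the methods do not name. Sex, strain and replicate letter came from the labels.

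Intensities were converted to log2 and used with no further scaling or filter. limma 3.58.1 (R 4.3.3) fitted strain and sex over 36 arrays (lmFit, eBayes), and interactions of sex and strain in a second model, over all 16637 transcripts, with Benjamini-Hochberg adjustment and a threshold of 0.01. The fits were tested on simulated data with independent noise for each transcript and array. Deviations shared by many transcripts of an array were not simulated, so the test says nothing about their effect. Descriptions used Python 3.11.15, pandas 2.3.3, numpy 2.4.6 and matplotlib 3.10.9. The main fits did not pair the sexes by replicate letter. Per the methods the progeny of the crosses was separated by sex, so same-letter arrays may share a cross. The labels do not say. Deviations of same-letter male and female arrays from their group means correlated at -0.27 to 0.32, those of other letters at -0.32 to 0.38. With 3 arrays per group these correlations cannot decide whether the letters pair the sexes. The comparison, lists and alternatives were chosen with earlier results of these data known.

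Named were the 2 most positive and 2 most negative unpaired transcripts whose sexes did not overlap, the 2 brightest called in each direction, the 2 with the lowest interaction p, and, of the 44 transcripts that the gene table (assembly Release 6 plus ISO1 MT) paired with genes, the called ones with the 10 largest differences in each direction and the 5 smallest. kis, Uba1, His4r and mio were added after their values were seen. The arrays follow an older annotation, so no coordinates or sequences are given. With 1 colour and no control probes in the deposited values, the number of arrays sets the precision. Tissue markers and gene lists were not analysed here, since 0 of 231 genes were paired.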

Additional observations from a re-analysis of the deposited data

Results flagged for a closer look

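The sex difference was found to differ between strains in 249 transcripts by the interaction test, and in 3 of the named transcripts, FBtr0082287 (adjusted p = 2.62e-16), FBtr0076262 (1.07e-06) and FBtr0085543 of Wdr24 (0.00874), all from limma over 36 arrays. In FBtr0082287 all 3 REC female arrays were high, and in Wdr24 the difference was between -1.42 and -2.33 with the same sign in 6 of 6 strains. As deposited, FBtr0076262 was higher in males in INV1 and lower in SIM1, REV1 and REV2, and these signs were not examined under other scalings.

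The count of 249 was not stable when single arrays were left out. Each such fit had 1 array fewer in a group, and whether lower counts came from that was not tested. Without C, the INV1 males are A and B, both among the male arrays that stood apart. Leaving out 1 array at a time moved the count by over 1.5 times for 23 of the 36 arrays. Of these, 3 raised it and 20 lowered it. It rose to 1050 without male INV1 C, 615 without female REV2 B and 518 without male SIM1 C. Among females it fell to 58, 96 without REV2 A or REV2 C, to 78, 102 and 114 without REC A, B or C, to 81 without INV2 A, to 147, 124 and 114 without REV1 A, B or C, to 136, 148 and 147 without INV1 A, B or C, and to 130 and 157 without SIM1 A or B. Among males it fell to 133, 128 and 95 without INV2 A, B or C, to 134 without REC C, to 144 without REV1 C and to 135 without REV2 C.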

How the results depend on the processing

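Directions between the sexes were limited by scaling more than by any array. Of the 9 summary values, 8 moved by less than 1.5 times, or less than their spread, with each array left out. Their ranges were 9543 to 9588 higher in males, 5858 to 5945 in females, 5195 to 5241 and 2931 to 2986 over 2-fold, 6736 to 6857 and 4050 to 4167 without overlap, a median of 0.38 to 0.39 and an SD of 1.72 to 1.73. The count that varied among strains ran from 58 to 1050. After scale normalization 3125 and 5129 transcripts were over 2-fold higher in males and females, 3933 and 6146 had sexes without overlap, and the median was -0.092. After quantile normalization 5649 were higher in males, 3271 of them over 2-fold, 3608 had all male arrays above all female arrays, and the median was -0.19. With array medians subtracted the values were 6270 higher in males, 3074 and 4882 over 2-fold, 6130 and 3783 without overlap in females and males, and a median of -0.18. The cause was not tested. Without the dimmest 25% of transcripts, 12477 were tested, 5792 were higher in males, 4358 did not overlap, the median was 0.0051 and the SD 1.93, with fewer genes tested. Requiring a difference over 1 (limma's treat) left 4380 and 2432. With the replicate letter as a block the interaction count was 158, with the paired replicate block of strain and letter 19, with array weights 8260, with 1 weight per sex 53, at an adjusted p under 0.05 it was 1575, and without 4 or 5 male arrays 989 or 925. The blocks moved none of the 4 counts of calls, in all or over 2-fold, by over 1.5 times. Leaving out the 5 male arrays together and moving the level of 512 were chosen after seeing the data.

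Of 427 values of the 33 named transcripts under 13 settings, 387 kept direction and call, 16 fell short of the threshold, 11 passed it and 13 changed sign. Signs changed after scale normalization or with medians subtracted in FBtr0112413 (-0.74 and -0.47), FBtr0112526 (-0.31 and -0.066), Gint3 (FBtr0086654, -0.27 and -0.14), ND-MNLL (FBtr0071140, -0.35 and -0.25) and PIG-M (FBtr0071680, -0.66 and -0.55), after scale normalization in alpha-Spec (FBtr0072789, -0.0026), and after quantile normalization in CG32573 (FBtr0074315, -0.62) and CG9288 (FBtr0082829, 0.094). The call of Tim10 was lost without any of 24 single arrays.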
